A study of Mus musculus with 9 samples.

Results

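The 10 genes of the epithelial-mesenchymal transition (EMT) described here were followed across the 9 sequenced mammary tumors. They were the rows of the count table whose Ensembl identifiers carry the symbols *Cdh1*, *Epcam*, *Esrp1*, *Cdh2*, *Vim*, *Zeb1*, *Zeb2*, *Snai1*, *Snai2* and *Twist1*. All 10 were found among the 35275 genes listed, and all 10 passed the filter on low counts that left 15821 genes for testing. The study treated mice carrying mammary tumors with Talazoparib, an inhibitor of the DNA repair enzyme PARP, either as the free drug or in a nano-liposome, and RNA from the tumors was sequenced to compare gene expression. All 9 tumors, those of the saline group included, had the genotype Brca1Co/Co;MMTV-Cre;p53+/-, in which a Cre recombinase under the MMTV promoter, active mainly in mammary epithelium, removes part of *Brca1*, and 1 of the p53 alleles is missing throughout the animal. The 3 groups had 3 tumors each, from 3 mice per group by the study's account. The saline group (tumors A3673, A3685 and A3688) received no drug, the i.v. TLZ group (B3638, B3684 and B3700) received free Talazoparib into the vein, and the NanoTLZ group (C3519, C3669 and C3698) received liposomal Talazoparib. Mice were dosed 5 times, 3 times a week, with 0.33 mg/kg of Talazoparib per dose in both treated groups. The age of each animal is not given in the labels, tumors treated with empty liposomes were not analysed here, and the tumors arose spontaneously in single animals, so that each tumor is a lineage of its own.

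EMT is the change in which epithelial cells give up their junctions and polarity and take on the shape and motility of mesenchymal cells. It is driven by transcription factors of the Zeb, Snail and Twist families. Zeb and Snail factors bind E-box sequences and repress epithelial genes such as *Cdh1*, while splicing regulators of the Esrp family maintain the epithelial forms of many transcripts. In a mammary tumor the same genes also mark the normal cell types, since *Snai2* is expressed in basal mammary epithelium, and *Vim*, *Zeb1*, *Zeb2* and *Twist1* in fibroblasts, leukocytes or endothelium of the stroma.

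The E-box bound by the Zeb and Snail factors, CAGGTG or CACCTG on the opposite strand, was searched for in the 250 bases before the annotated start of the members for which a RefSeq promoter window was used (*Vim*, *Zeb2* with 4 starts, *Snai1*, *Twist1* and *Epcam*, 8 windows in all). This sequence is 1 form of the general E-box CANNTG. It occurred in the windows of 2 of these 5 genes, which are shown because 1 encodes an epithelial surface protein and the other a factor of the family that binds the motif. *Epcam* had it at 187 and at 19 bases before the start, and *Snai1* at 126 bases before the start. Of all 32851 windows of this length, 17.2% held the motif and 2.06% held it 2 or more times, so that 1 match is common. A match is a sequence only, and binding was not measured. The windows are on the plus strand of GRCm38.p6, *Epcam* at chr17:87635729-87635978 and *Snai1* at chr2:167537945-167538194, with the motif in capitals.
Epcam: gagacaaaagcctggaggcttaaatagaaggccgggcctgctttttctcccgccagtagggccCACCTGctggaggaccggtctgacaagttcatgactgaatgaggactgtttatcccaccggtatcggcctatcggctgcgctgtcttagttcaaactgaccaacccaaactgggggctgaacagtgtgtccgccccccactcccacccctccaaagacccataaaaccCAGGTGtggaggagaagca
Snai1: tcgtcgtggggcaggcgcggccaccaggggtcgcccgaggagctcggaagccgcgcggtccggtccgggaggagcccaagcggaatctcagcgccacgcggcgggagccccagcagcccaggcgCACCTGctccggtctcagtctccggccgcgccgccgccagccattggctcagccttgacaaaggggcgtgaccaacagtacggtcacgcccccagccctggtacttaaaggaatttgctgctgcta

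Between 17538380 and 21194980 counts per tumor were assigned to genes, and mitochondrial genes took between 1.40% and 2.29% of them. Luminal epithelial markers were present in every tumor, with the summed level of 8 genes (*Krt8*, *Krt18* and others) between 2200 and 6045 CPM (counts scaled to library sizes that TMM factors had adjusted). Of 7 adipocyte markers, 2 passed the filter, and the summed level was between 11.3 and 129 CPM. Skeletal muscle markers differed between the groups, with the summed level of 10 genes at 38.7 to 764 CPM in saline tumors, 4.26 to 32.9 CPM in i.v. TLZ tumors and 10.3 to 18.1 CPM in NanoTLZ tumors. *Brca1* ranged from 9.46 to 42.7 CPM and *Trp53* from 23.4 to 108 CPM, but a count over the whole gene does not check the loss of part of it. The tumors are mixtures of cells, and fewer cells of a type cannot be told apart from less RNA per cell. No library was identical to another.

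Levels of different genes were compared per kilobase of exon (CPM per kb). Over the 9 tumors, *Epcam* was the highest member at 453 ± 119 CPM per kb (SD, n = 9), followed by *Vim* at 132 ± 32.2, *Cdh1* at 128 ± 45.5 and *Esrp1* at 26.3 ± 6.995 CPM per kb. The transcription factors were lower, with *Snai1* at 19.7 ± 9.27, *Twist1* at 16.6 ± 22.7, *Snai2* at 4.43 ± 10.9, *Zeb2* at 1.89 ± 0.688 and *Zeb1* at 1.38 ± 0.471 CPM per kb, and *Cdh2* was at 1.66 ± 3.29 CPM per kb. *Epcam* exceeded *Vim* and *Cdh1* exceeded *Esrp1* in 9 of 9 tumors. The other neighbours in this order were not separated, as *Vim* exceeded *Cdh1* in 6 of 9 tumors, *Esrp1* exceeded *Snai1* in 7 and *Snai1* exceeded *Twist1* in 6. At the lower end the means misrepresent most tumors, since *Snai2* exceeded *Zeb2* in only 1 of 9 tumors and *Cdh2* exceeded *Zeb1* in 2 of 9.

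**Figure D1:**
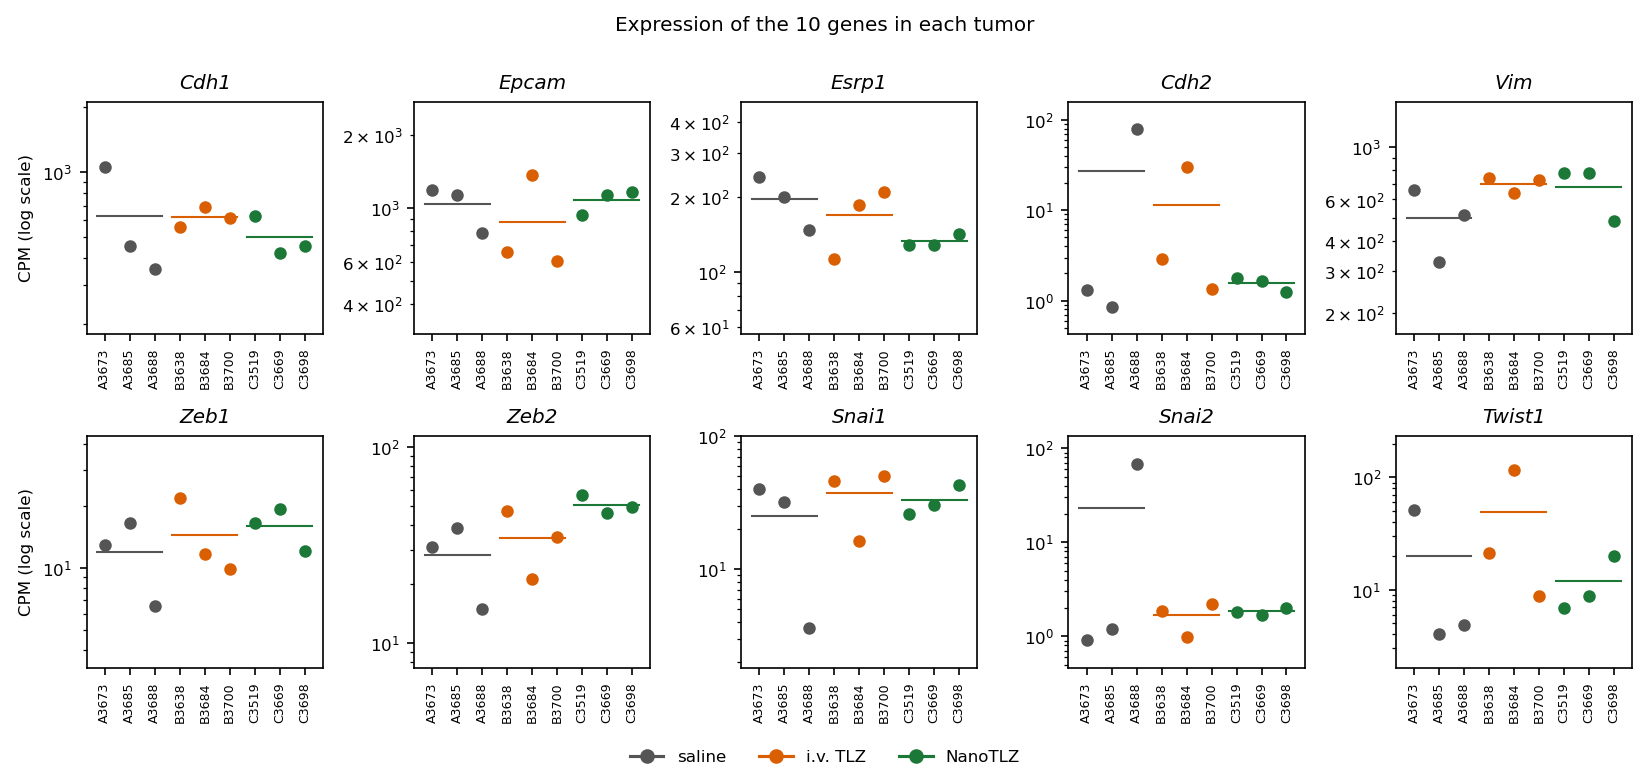
CPM of each of the 10 genes (log axis, own scale per panel) in the 9 tumors, with 1 point per tumor colored by group and a line at the arithmetic mean of each group of 3. The epithelial genes and *Vim* vary within about 3-fold, while *Cdh2*, *Snai2* and *Twist1* have 1 or 2 tumors far above the others.

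The members split into a narrow and a wide set. The ratio of the highest to the lowest tumor was 2.14 for *Esrp1*, 2.26 for *Epcam*, 2.37 for *Vim*, 2.95 for *Cdh1*, 3.36 for *Zeb1* and 3.80 for *Zeb2*. It was 13.9 for *Snai1*, 29.3 for *Twist1*, 74.2 for *Snai2* and 92.7 for *Cdh2*. Of all tested genes, 79.8% had a ratio at least as large as that of *Esrp1* and 42.9% at least as large as that of *Zeb2*, against 11.2% for *Snai1*, 5.15% for *Twist1*, 2.07% for *Snai2* and 1.71% for *Cdh2*.

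*Cdh1* (chr8:106603351-106670246, plus strand) encodes E-cadherin, the adhesion molecule of epithelial junctions. It was at 1056, 457 and 359 CPM in the saline tumors A3673, A3685 and A3688, at 560, 692 and 617 CPM in the i.v. TLZ tumors B3638, B3684 and B3700, and at 628, 424 and 457 CPM in the NanoTLZ tumors C3519, C3669 and C3698. Saline held both the highest and the lowest tumor, and the groups overlapped. Against saline, i.v. TLZ had a log2 fold change of -0.0024 (95% interval -0.92 to 0.91, adjusted p = 0.999 by edgeR) and NanoTLZ one of -0.31 (-1.23 to 0.61, adjusted p = 0.825 by edgeR). Both signs rested on single tumors, as without A3673 the log2 fold changes were 0.62 and 0.33. The first, which lay near 0, was also above 0 without B3638 (0.07), B3700 (0.02), C3669 (0.01) or C3698 (0.01).

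*Epcam*, which encodes an adhesion molecule of the epithelial cell surface (chr17:87635979-87651129, plus strand), was at 1182, 1128 and 790 CPM in saline tumors in the same order, at 659, 1368 and 604 CPM with i.v. TLZ and at 933, 1126 and 1163 CPM with NanoTLZ. The i.v. TLZ group held the highest tumor, B3684, and the 2 lowest. Against saline the differences were -0.24 on the log2 scale in i.v. TLZ (95% interval -1.08 to 0.61) and 0.06 in NanoTLZ (-0.79 to 0.90). The first was -0.71 without B3684 and -0.01 without B3700, and the second became -0.08 without A3688.

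*Esrp1* encodes an epithelial splicing regulator (chr4:11331933-11386783, minus strand). It was at 241, 199 and 148 CPM in saline tumors, at 113, 185 and 209 CPM after i.v. TLZ and at 128, 128 and 142 CPM after NanoTLZ. All 3 NanoTLZ tumors were below all 3 saline tumors, by a gap of a few CPM between C3698 and A3688, and within NanoTLZ the tumors were close to each other. The log2 fold change of NanoTLZ against saline was -0.56 (SE 0.30, 95% interval -1.23 to 0.11, unadjusted p = 0.0921, adjusted p = 0.587 by edgeR), which did not pass the threshold. For i.v. TLZ it was -0.22 (SE 0.30), and it was 0.0056 without B3638. An antisense gene that overlaps *Esrp1*, *Gm26663*, had 159 counts over all tumors against 28920 for *Esrp1*.

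*Vim* (chr2:13573927-13582826, plus strand) encodes vimentin, the intermediate filament of mesenchymal cells. It was at 656, 326 and 518 CPM in saline tumors, at 737, 636 and 725 CPM in i.v. TLZ tumors and at 774, 772 and 488 CPM in NanoTLZ tumors. The lowest tumor was in saline and the highest in NanoTLZ, and each treated group overlapped with saline. Compared with saline, the log2 fold changes were 0.48 with i.v. TLZ (SE 0.34, adjusted p = 0.620 by edgeR) and 0.44 with NanoTLZ (SE 0.34, adjusted p = 0.685 by edgeR). Between NanoTLZ and i.v. TLZ it was -0.05 with a 95% interval of -0.80 to 0.71, and 0.16 without C3698.

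*Cdh2* encodes N-cadherin, the cadherin of neural and mesenchymal cells. It was at 1.32, 0.858 and 79.5 CPM in saline tumors, at 2.86, 29.8 and 1.35 CPM in the i.v. TLZ group and at 1.78, 1.64 and 1.24 CPM in NanoTLZ tumors. It was high in A3688 and B3684 and under 3 CPM in the other 7 tumors, so that the tumor of second rank was 10.4-fold above the third. The log2 fold change was -4.13 for NanoTLZ against saline (SE 1.72, unadjusted p = 0.0368, adjusted p = 0.552 by edgeR), -1.26 for i.v. TLZ against saline (SE 1.52, adjusted p = 0.793) and -2.86 for NanoTLZ against i.v. TLZ (SE 1.63, unadjusted p = 0.110). Without A3688 the first became 0.55 (adjusted p = 0.930 by edgeR) and the second 3.41 (unadjusted p = 0.0225, adjusted p = 0.494). The direction of both differences from saline thus turned when 1 tumor was left out. That between NanoTLZ and i.v. TLZ stayed below 0 but ranged from -3.38 to -0.44 with each tumor left out in turn.

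*Zeb1* and *Zeb2* encode zinc finger repressors of epithelial genes. *Zeb1* was at 12.9, 16.6 and 6.51 CPM in saline tumors, at 21.9, 11.6 and 9.90 CPM in the i.v. TLZ group and at 16.6, 19.3 and 12.1 CPM in NanoTLZ tumors. The groups overlapped in every comparison, and relative to saline the log2 difference was 0.27 (SE 0.45) in i.v. TLZ tumors and 0.41 (SE 0.45) in NanoTLZ tumors. The value for i.v. TLZ was -0.16 without B3638 and -0.02 without A3688, and that for NanoTLZ was 0.14 without A3688. *Zeb2* (chr2:44983632-45117395, minus strand) was at 30.9, 38.4 and 14.96 CPM in saline tumors, at 46.9, 21.2 and 34.6 CPM after i.v. TLZ and at 56.9, 46.2 and 49.3 CPM in NanoTLZ tumors. All 3 NanoTLZ tumors were above all 3 saline tumors, and i.v. TLZ overlapped with both. The log2 fold change of NanoTLZ against saline was 0.85 (SE 0.40, 95% interval -0.03 to 1.73, unadjusted p = 0.0559, adjusted p = 0.563 by edgeR), and 0.58 without A3688. For i.v. TLZ against saline it was 0.29 (SE 0.39), and -0.01 without either A3688 or B3638. Leukocyte markers, most of them genes of macrophages, were summed over 10 genes. The sum was 4770 to 5549 CPM in NanoTLZ tumors, 1938 to 3569 CPM in i.v. TLZ and 780 to 3499 CPM in saline. *Lyz2*, the lysozyme of macrophages, made up much of the sum, at 192 to 1573 CPM in saline and 2260 to 3642 CPM in NanoTLZ tumors, whereas *Ptprc*, which encodes the general leukocyte antigen CD45, overlapped between these groups at 13.8 to 86.4 and 51.9 to 91.7 CPM. All 10 were above saline in NanoTLZ by log2 fold change, beside 43.9% of all tested genes, and 3 of them without overlap, beside 7.82% of all genes. None was called and none was at 0 in any tumor, and their part in the *Zeb2* values was not tested. Antisense genes overlapping *Zeb1* (*Gm10125*, 98 counts against 2494) and *Zeb2* (*Zeb2os*, 68 against 6647) had few counts.

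*Snai1* and *Snai2* encode the zinc finger factors Snail and Slug. *Snai1* (chr2:167538195-167542814, plus strand) was at 40.1, 32.2 and 3.62 CPM in saline tumors, at 46.1, 16.5 and 50.3 CPM in i.v. TLZ tumors and at 25.9, 30.5 and 42.8 CPM in NanoTLZ tumors. One saline tumor, A3688, was far below the others, and the remaining saline tumors lay within the range of the treated ones. Relative to saline the log2 difference was 0.57 (SE 0.71) after i.v. TLZ and 0.39 (SE 0.71) after NanoTLZ, and without A3688 these were 0.07 and -0.10. *Snai2* (chr16:14705852-14709385, plus strand) was at 0.916, 1.19 and 67.9 CPM in saline tumors, at 1.84, 0.984 and 2.22 CPM in i.v. TLZ tumors and at 1.83, 1.69 and 2.02 CPM in NanoTLZ tumors. It was high in A3688 only, 30.6-fold above the next tumor, and the count in A3688 was 1480 against 16 to 41 in the other 8. Against saline, edgeR gave log2 fold changes of -3.79 for i.v. TLZ (SE 1.40, unadjusted p = 0.0216, adjusted p = 0.443) and -3.66 for NanoTLZ (SE 1.39, unadjusted p = 0.0247, adjusted p = 0.552). Without A3688 the signs turned and the values were 0.68 and 0.83, with adjusted p = 0.715 and 0.788 by edgeR.

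*Twist1*, a basic helix-loop-helix factor (chr12:33957671-33959829, plus strand), was at 51.0, 4.00 and 4.82 CPM in saline tumors, at 21.1, 117 and 8.71 CPM in the i.v. TLZ group and at 6.84, 8.79 and 19.9 CPM in NanoTLZ tumors. B3684 was highest, 2.301-fold above A3673, and the groups overlapped. Fold changes against saline, on the log2 scale, were 1.30 for i.v. TLZ (SE 1.11, adjusted p = 0.691 by edgeR) and -0.75 for NanoTLZ (SE 1.10, adjusted p = 0.844 by edgeR). Without B3684 the first was -0.42, and without A3673 the second was 1.46.

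**Figure D2:**
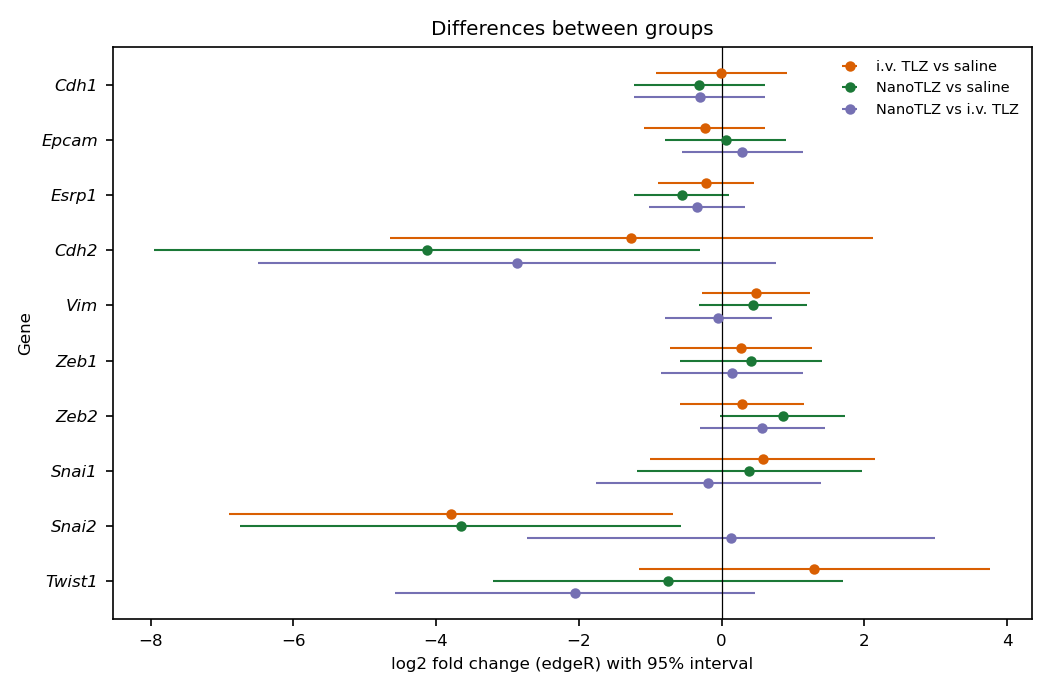
Log2 fold change of the 10 genes in 3 comparisons (each treated group with saline, and NanoTLZ with i.v. TLZ), as points with 95% intervals from the edgeR fit to 9 tumors. Most intervals include 0, and those of *Snai2* against saline and of *Cdh2* in NanoTLZ against saline do not before adjustment.

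Across the comparisons, edgeR called 0 of the 10 members at an adjusted p under 0.05. In i.v. TLZ against saline 0% of the 15821 tested genes were called, and 1 member (*Snai2*, lower) had an unadjusted p under 0.05, against 5.47% of all tested genes that did so in that direction. No member was without overlap between these groups, against 11.2% of all genes. In NanoTLZ against saline 0.00632% of all genes were called, and 2 members (*Cdh2* and *Snai2*, both lower) had an unadjusted p under 0.05, against 5.49% of all genes lower. In the same comparison *Zeb2* was higher and *Esrp1* lower without overlap between groups, against 7.82% and 8.13% of all genes in these directions. In NanoTLZ against i.v. TLZ 0% of all genes were called, 0 members had an unadjusted p under 0.05, against 1.68% of all genes, and 0 members were without overlap, against 7.61%. In both treated groups against saline 0.019% of all genes were called, and 1 member (*Snai2*, log2 fold change -3.72, SE 1.07, unadjusted p = 0.00574, adjusted p = 0.284 by edgeR) had an unadjusted p under 0.05, against 8.29% of all genes lower. No member was without overlap there, against 5.47% of all genes. DESeq2 fitted to the same tumors also called 0 members in each comparison, beside 0.773% of all genes with a p in i.v. TLZ against saline, 0.402% in NanoTLZ against saline, 0.0119% in NanoTLZ against i.v. TLZ and 1.09% in both treated groups against saline, but it gave no p for *Cdh2* and *Snai2*, which its filter on outlying counts set aside. Without that filter it called 1 member, *Snai2*, in i.v. TLZ against saline (adjusted p = 0.0428) and in both treated groups against saline (adjusted p = 0.00998), and 0 in NanoTLZ against saline. That fit called 0.989%, 1.51% and 0.612% of all genes with a p in these comparisons in the same order. The comparisons against saline share the saline tumors, and the value of *Snai2* in both treated groups against saline was 0.75 without A3688. The median log2 fold change of the 10 members in both treated groups against saline was 0.09, with 5 above 0 and 5 below, beside -0.06 for all tested genes.

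**Figure D3:**
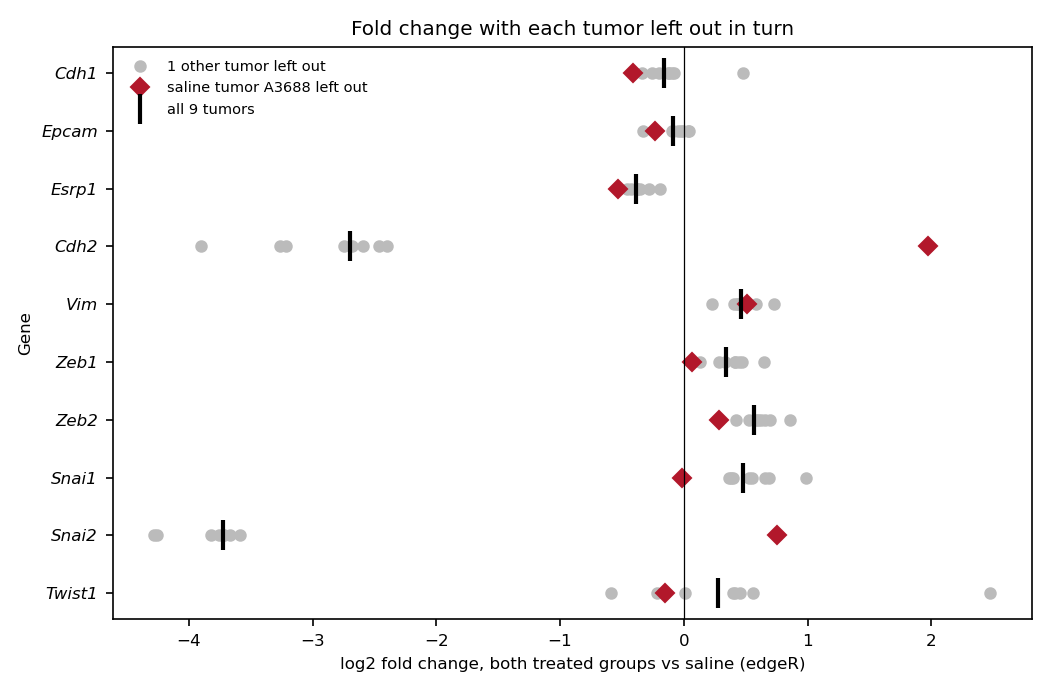
Log2 fold change of each gene in both treated groups against saline with all 9 tumors (black bars), without saline tumor A3688 (red diamonds) and without each other tumor in turn (gray points). *Cdh2* moves from -2.70 to 1.98 and *Snai2* from -3.72 to 0.75 when A3688 is left out.

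The wide spread of the members came from a few tumors. In the saline tumor A3688, *Snai2* was 74.2-fold and 57.0-fold above A3673 and A3685, and *Cdh2* was 60.4-fold and 92.7-fold above them. Of the tested genes, 38 (0.240%) for *Snai2* and 34 (0.215%) for *Cdh2* had at least as large a ratio over both other saline tumors. The same tumor had the lowest value of 4 members, *Cdh1*, *Zeb1*, *Zeb2* and *Snai1*, with *Snai1* 11.1-fold and 8.88-fold below A3673 and A3685. It was the lowest tumor for 24.4% and the highest for 25.7% of all tested genes, so that extreme values are frequent there. Of 8 basal epithelial markers, 4 were highest in A3688, as *Snai2* was. *Krt5* was at 1849 CPM against 2.296 to 72.9 CPM in the other 8 tumors, *Trp63* at 131 against 1.91 to 28.5 CPM, *Krt17* at 693 against 74.4 to 301 CPM and *Oxtr*, the oxytocin receptor, at 79.3 against 0.866 to 19.5 CPM. The other markers of that list (*Krt14*, *Acta2*, *Cnn1* and *Myh11*) were not highest in A3688, *Krt14* being at 802 CPM against 122 to 2584 CPM in the other tumors. *Cnn1*, a smooth muscle protein of myoepithelium, was lowest of the 9 tumors in A3688 at 1.38 CPM, and *Myh11*, a smooth muscle myosin, was second lowest at 3.76 CPM. The summed skeletal muscle level was also highest in A3688, at 764 CPM. The part of these markers' cells in the *Snai2* and *Cdh2* values was not tested.

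The i.v. TLZ tumor B3684 was the second tumor for *Cdh2* and the highest for *Twist1* and *Epcam*. *Snai2* was at 0.984 CPM there, so that the 2 tumors with high *Cdh2* differed in *Snai2* and *Twist1*. *Oxtr* was at 19.5 CPM in B3684, second to A3688, while *Krt5* was at 2.296 CPM and *Trp63* at 1.91 CPM. B3684 also had the highest *Fn1*, which encodes fibronectin, at 9705 CPM against 732 to 2630 CPM in the other tumors. Of 17 further mesenchymal genes tested, 5 were highest in B3684 (*Fn1*, *Snai3*, *Foxc2*, *Sparc* and *Loxl2*), beside 14.3% of all tested genes. Another 3 were lowest in B3684, *Cdh11* at 6.18 CPM, *Tcf4* at 64.6 CPM and *Lox* at 8.53 CPM, beside 14.8% of all tested genes. More of the 17, 6 of them, were highest in the i.v. TLZ tumor B3638. The summed level of the fibroblast markers was lowest in B3684, at 999 CPM against 1469 to 6042 CPM elsewhere, and most of it was the collagens *Col1a1* (446 CPM), *Col1a2* (306 CPM) and *Col3a1* (132 CPM). Not every fibroblast marker was low in B3684, as *Pdgfra* was at 31.2 CPM and *Dcn* at 30.3 CPM, above the saline tumors at 15.2 to 22.8 and 16.1 to 21.02 CPM.

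**Figure D4:**
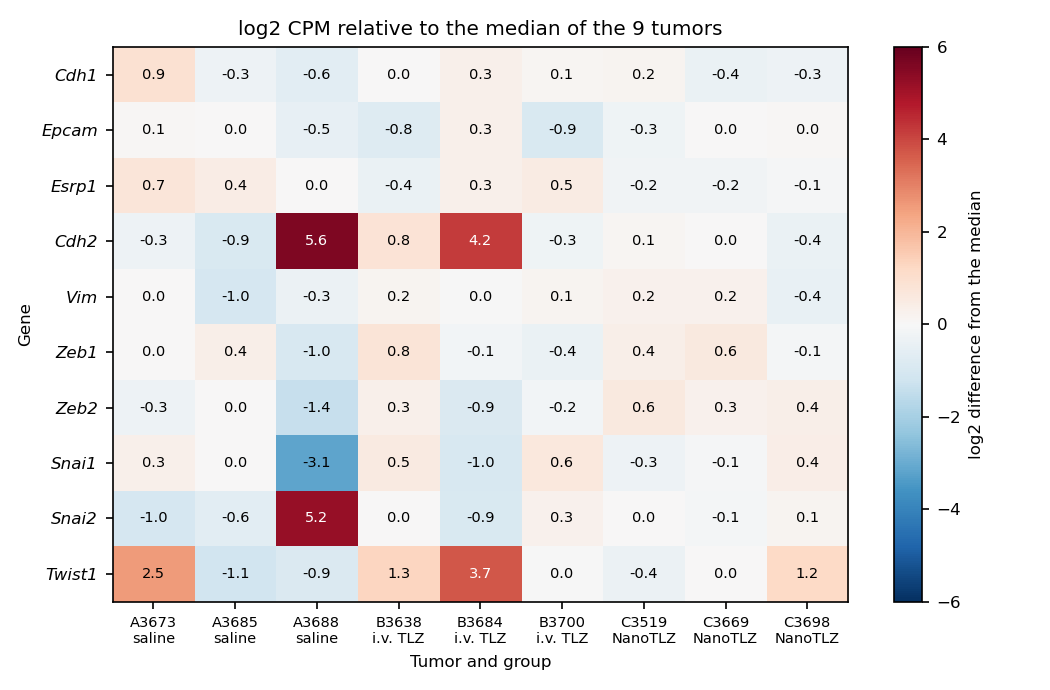
Log2 CPM of the 10 genes in each tumor relative to the gene's median over the 9 tumors, with red above and blue below the median. A3688 stands at 5.6 for *Cdh2*, 5.2 for *Snai2* and -3.1 for *Snai1*, and B3684 at 4.2 for *Cdh2* and 3.7 for *Twist1*.

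Ratios of pairs of members within a tumor, per kb, set the epithelial against the mesenchymal genes without a scaling between tumors. The log2 ratio of *Cdh1* to *Vim* was 0.74, 0.54 and -0.48 in saline tumors, -0.35, 0.17 and -0.18 in i.v. TLZ tumors and -0.25, -0.81 and -0.04 in NanoTLZ tumors. *Cdh1* was thus above *Vim* in 2 saline tumors and 1 i.v. TLZ tumor, and the groups overlapped. The log2 ratio of *Cdh1* to *Cdh2* was 2.99 in A3688 and 5.35 in B3684, and between 8.43 and 10.47 in the other 7, so that E-cadherin transcripts exceeded N-cadherin transcripts in every tumor. *Snai1* exceeded *Snai2* by 4.14 to 5.77 on the log2 scale in 8 tumors, while in A3688 the log2 ratio was -3.91. *Zeb2* exceeded *Zeb1* in 8 of 9 tumors, with log2 ratios of *Zeb1* to *Zeb2* between -1.07 and 0.09.

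The members were not shown to vary together across the 9 tumors. Of the 45 pairs of members, 0 had an adjusted p under 0.05 when Pearson's r of log2 CPM was tested by exact permutation (two-sided), with 5 at an unadjusted p under 0.05, and 0 did so for Spearman's rho, with 1 at an unadjusted p under 0.05. *Zeb1* and *Zeb2* had r = 0.79 (exact p = 0.0106, adjusted p = 0.205) and rho = 0.62 (exact p = 0.0857, adjusted p = 0.807), and r was 0.53 without the 2 tumors farthest from the median of *Zeb1*. *Cdh2* and *Snai1* had r = -0.89 (exact p = 0.00830, adjusted p = 0.205) and rho = -0.55 (exact p = 0.133, adjusted p = 0.807). Without A3688 and B3684, which stand apart for *Cdh2*, r was 0.14, so that the relation rested on those tumors. *Cdh1* had r = 0.14 with *Zeb1* (exact p = 0.712, adjusted p = 0.916), and rho was 0 to rounding (adjusted p = 1).

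The members were also set beside the summed levels of endothelial, leukocyte, fibroblast and basal markers, in 40 relations. The relation of *Zeb1* with the 8 endothelial markers (*Pecam1*, *Cdh5*, *Kdr* and others) was the one with an adjusted p under 0.05, with r = 0.89 (exact permutation p = 0.000725, adjusted p = 0.0290) and rho = 0.90 (exact p = 0.00203, adjusted p = 0.0811, which did not pass). It was r = 0.81 without the 2 tumors farthest from the median of the marker level, 0.88 without A3688 and 0.87 within the 6 treated tumors. *Zeb2* had r = 0.82 with the endothelial markers (exact p = 0.00533, adjusted p = 0.107) with rho = 0.80 (exact p = 0.0138, adjusted p = 0.172), and r = 0.80 with the leukocyte markers (exact p = 0.0142, adjusted p = 0.189) with rho = 0.78 (exact p = 0.0172, adjusted p = 0.172). Without the 2 farthest tumors these were 0.87 and 0.91. *Vim* had rho = 0.83 with the fibroblast markers (exact p = 0.00827, adjusted p = 0.165), with r = 0.56 (exact p = 0.127, adjusted p = 0.344). *Epcam* had r = -0.68 with the basal markers (exact p = 0.0411, adjusted p = 0.344). *Esrp1* had rho = -0.70 with the endothelial markers (exact p = 0.0433, adjusted p = 0.346). The summed endothelial level was 86.8 to 171 CPM in saline, 90.03 to 203 CPM in i.v. TLZ and 173 to 231 CPM in NanoTLZ tumors.

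**Figure D5:**
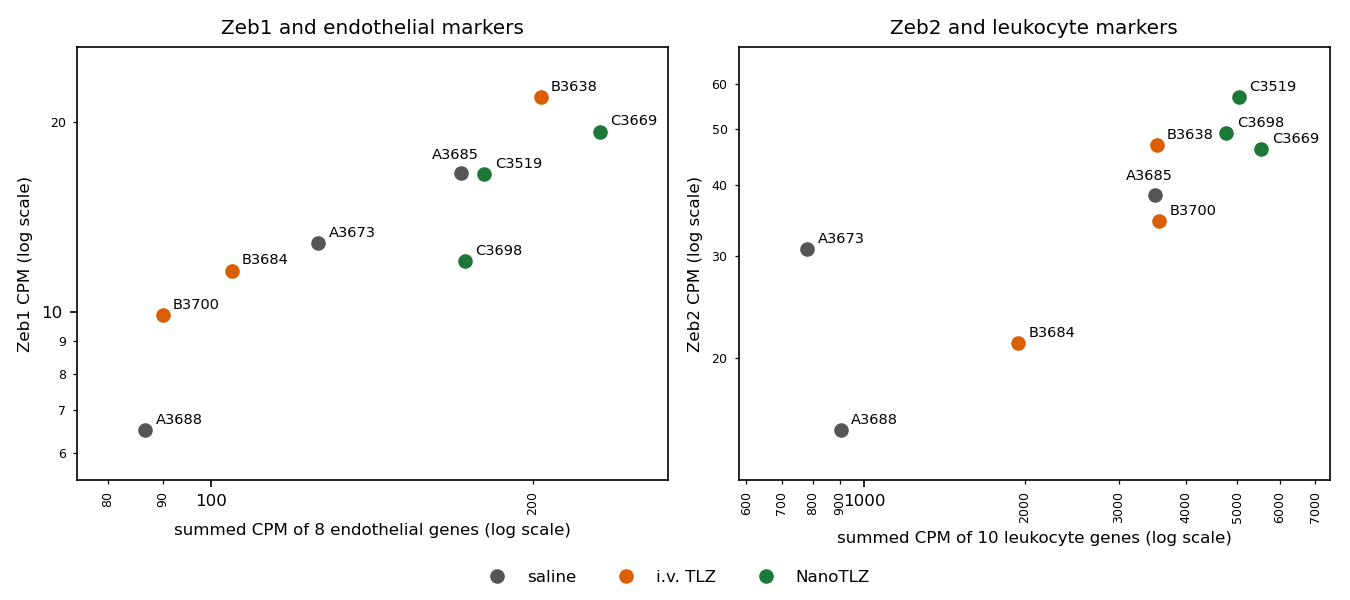
Left, *Zeb1* CPM against the summed CPM of 8 endothelial markers, and right, *Zeb2* CPM against the summed CPM of 10 leukocyte markers, with 1 point per tumor, colored by group, on log axes. *Zeb1* is lowest in A3688 at 6.51 CPM, where the endothelial markers sum to 86.8 CPM, and the 3 NanoTLZ tumors lie at the right of the leukocyte axis, from 4770 to 5549 CPM.

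Further genes of the epithelial and the mesenchymal state were counted from lists. Of 24 other epithelial genes (junction components, Grhl and Ovol factors, membrane proteases), all tested, edgeR called 0 in each comparison. In both treated groups against saline their median log2 fold change was -0.46, with 21 below 0, beside -0.06 and 54% below 0 for all tested genes, and 4 had an unadjusted p under 0.05, all lower, against 8.29% of all genes. These 4 were *Grhl1*, *Grhl2*, *Ovol1* and *Prss8*, of which all but *Grhl1* were highest in saline tumor A3688. That tumor was highest for 8 of the 24 and lowest for 5, beside 25.7% and 24.4% of all tested genes. Another 7 were highest in saline tumor A3673. *Grhl1*, a factor that activates junction genes, was at 63.1, 53.0 and 45.1 CPM in saline tumors, at 42.1, 16.5 and 17.5 CPM after i.v. TLZ and at 25.7, 31.0 and 23.9 CPM in NanoTLZ tumors. Each of the 6 treated tumors lay below the lowest saline tumor, as was the case for 2.66% of all tested genes, and the log2 fold change was -1.04 (SE 0.32, adjusted p = 0.284 by edgeR). *Prss8*, a membrane-anchored protease, had a log2 fold change of -1.0005 (SE 0.33, adjusted p = 0.289 by edgeR), and one of -0.44 without A3688. *Crb3*, a polarity protein, and *Spint1*, a protease inhibitor, were at 0.45 (SE 0.26) and 0.24 (SE 0.28).

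Of 18 other mesenchymal genes, 17 were tested and *Twist2* was not, and edgeR called 0 in each comparison. In both treated groups against saline their median log2 fold change was 0.77, with 14 of 17 above 0, beside 46% of all tested genes, and 6 had an unadjusted p under 0.05, all higher, against 4.8% of all genes. Saline tumor A3688 was lowest for 7 of the 17 and highest for 1, beside 24.4% and 25.7% of all tested genes. *Prrx1*, a homeobox factor of mesenchymal cells that can drive EMT, was at 13.4, 13.0 and 11.6 CPM in saline tumors, at 29.1, 43.8 and 50.9 CPM in i.v. TLZ tumors and at 16.4, 17.9 and 13.1 CPM in NanoTLZ tumors. The i.v. TLZ tumors were above all others, and NanoTLZ overlapped with saline. For *Prrx1* the log2 fold change was 1.70 in i.v. TLZ against saline (SE 0.31, unadjusted p = 0.000237, adjusted p = 0.251 by edgeR), 0.32 for NanoTLZ against saline (SE 0.30) and -1.38 for NanoTLZ against i.v. TLZ (SE 0.30, unadjusted p = 0.00103, adjusted p above 0.99 by edgeR). DESeq2, which called more of all genes than edgeR did (0.773% and 1.09%), called 1 of these genes, *Prrx1*, in i.v. TLZ against saline and in both treated groups against saline. *Loxl2*, a lysyl oxidase, was at 1.09 (SE 0.37, adjusted p = 0.295 by edgeR) in both treated groups against saline, *S100a4* at -0.94 (SE 0.81) and *Snai3* at -0.33 (SE 0.66). Without A3688 the value of *S100a4* turned to 1.63, and without A3673 that of *Snai3* was 0.04. Fibroblast markers lay in the same direction as the mesenchymal genes, with 9 of 10 above 0 and a median of 0.58, and their part in these values was not tested.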

How the data were processed

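RNA was sequenced from whole mammary tumors of 3 saline, 3 i.v. TLZ and 3 NanoTLZ mice. The table the authors deposited holds unnormalized read counts per gene. The submitters' processing notes name mm10, TopHat2 and DESeq2. The counting program, annotation and strand setting are not given in the sources used here, so that reads of a gene and its antisense partner cannot be told apart. Groups were taken from the labels, and all 9 columns were used. The table lists 35275 Ensembl identifiers, of which 34490 were found in GENCODE M21 (GRCm38), the source of symbols, positions and exon lengths. The members and gene lists were chosen with earlier results of these data known.

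Genes passing filterByExpr (minimum count 10, minimum total 15; 15821 genes) were scaled by TMM and fitted with 1 coefficient per group over all 9 tumors by the quasi-likelihood method of edgeR 4.0.16 under R 4.3.3. Adjusted p-values are Benjamini-Hochberg over all tested genes, called under 0.05. The fit was tested on simulated data. Standard errors were derived from the F statistic, and intervals are at 95%. Correlations used log2 CPM (prior count 2) and all 362880 pairings of the 9 tumors. P-values of the main fit rest on the spread between tumors within groups, estimated in 1 fit of all 9 tumors, with 3 per group. Those of the correlations rest on the pairings of all 9 tumors without regard to group.

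Alternatives were RLE and upper quartile scaling, no filter, at least 10 counts in each of the tumors, robust dispersion, a prior count of 0.5, DESeq2 1.42.0 on all tumors or on the groups compared, edgeR on the groups compared, and each tumor left out in turn. DESeq2 without its Cook's distance filter, the relations with marker lists and the values of listed genes with 1 tumor left out were chosen after seeing the data. The text names all 10 members. Of each list it names the genes called in a comparison, and otherwise the 2 with the smallest p in each direction in both treated groups against saline, and also the 5 genes with the highest r to *Cdh1* and to *Zeb1*, of which 1 is not reported here. Other marker genes and tumors named beside a member were chosen after their values were seen. The remaining steps used scipy 1.17.1, pandas 2.3.3 and numpy 2.4.6, and figures used matplotlib 3.10.9, all under Python 3.11.15.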

Additional observations from a re-analysis of the deposited data

How the results depend on the processing

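No paired analysis was possible because the labels give the tumors no number that recurs in another group. The common biological coefficient of variation was 49.8%, with 3 tumors per group. Counts of called members, other epithelial genes and other mesenchymal genes were 0 in each comparison under every edgeR alternative, tumors left out included. DESeq2 called more of all genes than edgeR did, between 92 and 252 in i.v. TLZ and between 101 and 169 in NanoTLZ against saline. The main edgeR fit called 0 and 1 there, and the edgeR alternatives at most 5 and 6, both with no filter on low counts. Among the members and these 2 lists DESeq2 gave 1 called gene in 8 cases. Without the Cook's distance filter, chosen after seeing the data, it called 1 member, *Snai2*, in i.v. TLZ and in both treated groups against saline. Of the other mesenchymal genes it called 1, *Prrx1*, in the same 2 comparisons on all 9 tumors with and without that filter, and on the groups compared 1 in i.v. TLZ (*Prrx1*) and 1 in NanoTLZ (*Mmp2*) against saline. The cause was not tested. Of the 40 log2 fold changes of members, 17 kept their sign in every alternative and 23 did not. The scaling or filter turned 1, *Cdh1* in i.v. TLZ against saline, which was 0.085 with upper quartile scaling, 0.023 with at least 10 counts in every tumor and 0.0045 with edgeR on the groups compared. Leaving out 1 tumor gave the following ranges where a sign turned. In i.v. TLZ against saline they were -0.26 to 0.62 for *Cdh1*, -0.38 to 0.0056 for *Esrp1*, -3.69 to 3.41 for *Cdh2*, -0.16 to 0.58 for *Zeb1*, -0.011 to 0.58 for *Zeb2*, -4.35 to 0.68 for *Snai2* and -0.42 to 3.496 for *Twist1*. In NanoTLZ against saline they were -0.56 to 0.33 for *Cdh1*, -0.076 to 0.19 for *Epcam*, -4.69 to 0.55 for *Cdh2*, -0.10 to 0.91 for *Snai1*, -4.21 to 0.83 for *Snai2* and -1.31 to 1.46 for *Twist1*. In NanoTLZ against i.v. TLZ they were -0.15 to 0.16 for *Vim*, -0.049 to 0.57 for *Zeb1*, -0.54 to 0.10 for *Snai1* and -0.13 to 0.40 for *Snai2*. In both treated groups against saline they were -0.41 to 0.48 for *Cdh1*, -0.33 to 0.038 for *Epcam*, -3.90 to 1.98 for *Cdh2*, -0.015 to 0.99 for *Snai1*, -4.28 to 0.75 for *Snai2* and -0.59 to 2.48 for *Twist1*. For *Cdh2* and *Snai2* against saline the end above 0 is the value without A3688.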

Other observations

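Among the genes whose log2 CPM followed that of *Cdh1* most closely over the 9 tumors were *Mfn1* (r = 0.96), which encodes a mitochondrial fusion protein, *Naa15* (r = 0.96), *Nbeal1* (r = 0.95) and *March7* (r = 0.94). None of them was on the list of epithelial genes. *Mfn1* ranged from 50.9 to 125 CPM. Without A3688 these values were between 0.93 and 0.98. Those closest to *Zeb1* were *Wscd1* (r = 0.97), *Csgalnact1* (r = 0.97), *1810024B03Rik* (r = 0.95), *Atp8b5* (r = 0.95) and *Dkk2* (r = 0.94), which encodes a secreted Wnt antagonist. *Dkk2* ranged from 1.56 to 22.8 CPM and *Atp8b5* from 0.0918 to 1.21 CPM. Without A3688 these values were between 0.88 and 0.95. They were the highest of all tested genes by choice, and no p is given.

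Among the marker lists used beside the members, edgeR called 3 genes in both treated groups against saline. The calls depended on single tumors. Without A3685, B3638, B3684, B3700, C3669 or C3698, edgeR called 0 of all tested genes in that comparison. It called 1 without C3519, 3 without A3688 and 18 without A3673. *Myl1* and *Myh4*, myosin genes of skeletal muscle, were at 3.03 to 36.5 CPM and 6.01 to 213 CPM in saline tumors, and no treated tumor exceeded 0.193 CPM for *Myl1* or 0.216 CPM for *Myh4*. *Col2a1*, a cartilage collagen, was at 9.38 to 21.3 CPM in saline, 141 to 191 CPM in i.v. TLZ and 298 to 799 CPM in NanoTLZ tumors, with a log2 fold change of 4.38 (SE 0.45, adjusted p = 0.0207 by edgeR). In the same comparison the median log2 fold change was -0.30 over 8 luminal, -0.49 over 8 basal, 0.33 over 8 endothelial, 0.69 over 10 leukocyte, 0.09 over 8 tested cartilage, 0.19 over 2 tested adipocyte and -1.29 over 8 proliferation genes. Of single genes that did not pass the threshold, the log2 fold change was -1.01 for *Elf5*, -0.30 for *Cldn7*, 0.36 for *Cldn4*, 0.02 for *Krt18*, -5.39 for *Krt5*, -2.85 for *Oxtr*, 0.94 for *Cnn1*, 0.98 for *Myh11*, 0.92 for *Egfl7*, 0.47 for *Tie1*, 1.65 for *Lyz2*, 0.65 for *Cd68*, 1.06 for *Pdgfra*, 1.90 for *Dcn*, -1.40 for *Pdpn*, 0.80 for *Lpl*, -0.43 for *Fabp4*, -1.55 for *Top2a* and -2.17 for *Mki67*. Several of these rested on 1 saline tumor, as without A3688 the value was 1.90 for *Krt5*, 1.22 for *Oxtr*, 0.62 for *Fabp4*, -0.17 for *Krt18*, -0.18 for *Pdpn* and -0.96 for *Mki67*. The value of *Krt18*, which lay near 0, was also below 0 without A3685, B3684 or C3519.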
